A study of Homo sapiens with 6 samples.

Results

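The oxysterol-binding protein family was followed in the human ovarian cancer line HeyA8-MDR, a drug-resistant subline of HeyA8, after treatment with an siRNA against GRAMD1B (siGRAMD1B, 3 arrays, numbered 2, 3 and 4) or with a control siRNA (siControl, 3 arrays, numbered 1, 2 and 4). Its 10 genes, of 20046 with a symbol on the array, were taken by symbol from the platform annotation: OSBP, OSBP2, OSBPL1A, OSBPL2, OSBPL3, OSBPL5, OSBPL8, OSBPL9, OSBPL10 and OSBPL11. They were read by 18 of the 47231 probes on an Illumina bead array, and 17 of the 18 were bright enough to be tested. All arrays hold the same cell line, and the sources used here do not state the sequence of the siRNA, its dose or the time after treatment. Whether replicate arrays stand for separate cultures is not stated either, so the p-values rest on a spread between arrays that may be technical.

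Proteins of this family carry lipids across the narrow gaps where the endoplasmic reticulum touches other membranes. A shared C-terminal domain binds a sterol or phosphatidylserine at a time and exchanges it for a phosphoinositide, usually phosphatidylinositol 4-phosphate (PI4P), whose breakdown in the endoplasmic reticulum keeps the exchange running. Most members reach the endoplasmic reticulum through the receptors VAPA and VAPB, and ORP5 and ORP8 through a membrane anchor of their own. GRAMD1B, the target of the siRNA, encodes an endoplasmic reticulum protein that moves cholesterol inward from the plasma membrane without belonging to this family.

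Values below are log2 intensities after background correction and quantile normalization, and differences are siGRAMD1B minus siControl on that scale. Probes of a gene were tested separately with limma, with Benjamini-Hochberg adjustment across the 28338 probes bright enough to test, and called at an adjusted p under 0.05. The median intensity of the arrays lay between 102.7 and 128.8. The GRAMD1B probe was lower in every siGRAMD1B array (6.26, 6.23 and 6.17) than in every siControl array (6.42, 6.41 and 6.57), and its difference of -0.25 ± 0.10 (SE) did not pass (adjusted p = 0.15). This probe lay close to the floor of the array, and its difference was -0.43 with a background offset of 16 in place of 50 (adjusted p = 0.11) and -0.16 in the authors' normalized values (adjusted p = 0.21). Ranked among all probe means of siControl, the mesenchymal marker gene VIM lay at percentile 99.5 and 99.9, the keratin gene KRT8 at 95.3 and the drug efflux gene ABCB1 at 95.8 and 96.3, whereas the 3 probes of the epithelial surface gene EPCAM lay between 40.7 and 61.4. The mesenchymal marker gene FN1 was dim as well, at 59.1 to 67.3 by its 3 probes, and the keratin gene KRT18 lay at 63.1 and 81.4. Of the markers of other cells, PTPRC (4 probes, up to percentile 43.7), CD3E (8.96), COL1A1 (62.9), COL1A2 (24.8 and 62.7), DCN (5.79 to 57.5) and PECAM1 (45.2) were dim. CDH5 (percentile 90.03) and CD68 (up to 96.1) were not, and the brightest CD68 probe rose by 0.37 (adjusted p = 0.023). The other CD68 probes differed by 0.16 and 0.24 and did not pass (limma adjusted p = 0.47 and 0.25). ABCB1 rose by 0.59 at its brighter probe (limma adjusted p = 0.023). Its dimmer probe differed by 0.41 and did not pass (adjusted p = 0.077), and the groups overlapped at both. CD68 encodes a lysosomal protein that is used as a macrophage marker, and its part in the results below was not tested. Each value is a mixture over all cells of a culture, so fewer cells of a kind and less RNA per cell cannot be told apart.

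Within the family, OSBPL5, OSBPL2 and OSBP rose in siGRAMD1B cells, and the other 7 genes had no probe past the threshold. OSBPL5 rose by 1.66-fold and 1.65-fold at its pair of probes, OSBPL2 by 1.52-fold and 1.32-fold, and OSBP by 1.36-fold at its single probe. Of the 17 tested family probes, 5 were called higher (29.4%), against 3.89% of all tested probes, and 0 were called lower by limma, against 3.21%. In either direction, 7.09% of all tested probes were called. At an unadjusted p under 0.05, 5 family probes were higher and 1, an OSBPL8 probe, was lower. Taking for each gene the probe with the highest mean, 3 of 10 family genes were called higher, against 5.71% of 14261 genes (9.43% in either direction). The probes of a gene are not independent, the family was chosen with results of these arrays known, and no test was made of these shares. The median difference was 0.07 over the 17 probes and -0.0046 over all tested probes, and by gene it was 0.17 over the 10 members and 0.0090 over all genes. The 3 arrays of siGRAMD1B lay entirely above those of siControl at 5 family probes and entirely below at 1, where 12.3% and 11.8% of all tested probes did so (24.1% in either direction), and the 11 remaining probes had overlapping groups. Permuting the 6 arrays exactly (2-sided) gave p = 0.10 at each of the 6 probes without overlap, the smallest value that 3 arrays against 3 allow.

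**Figure D1:**
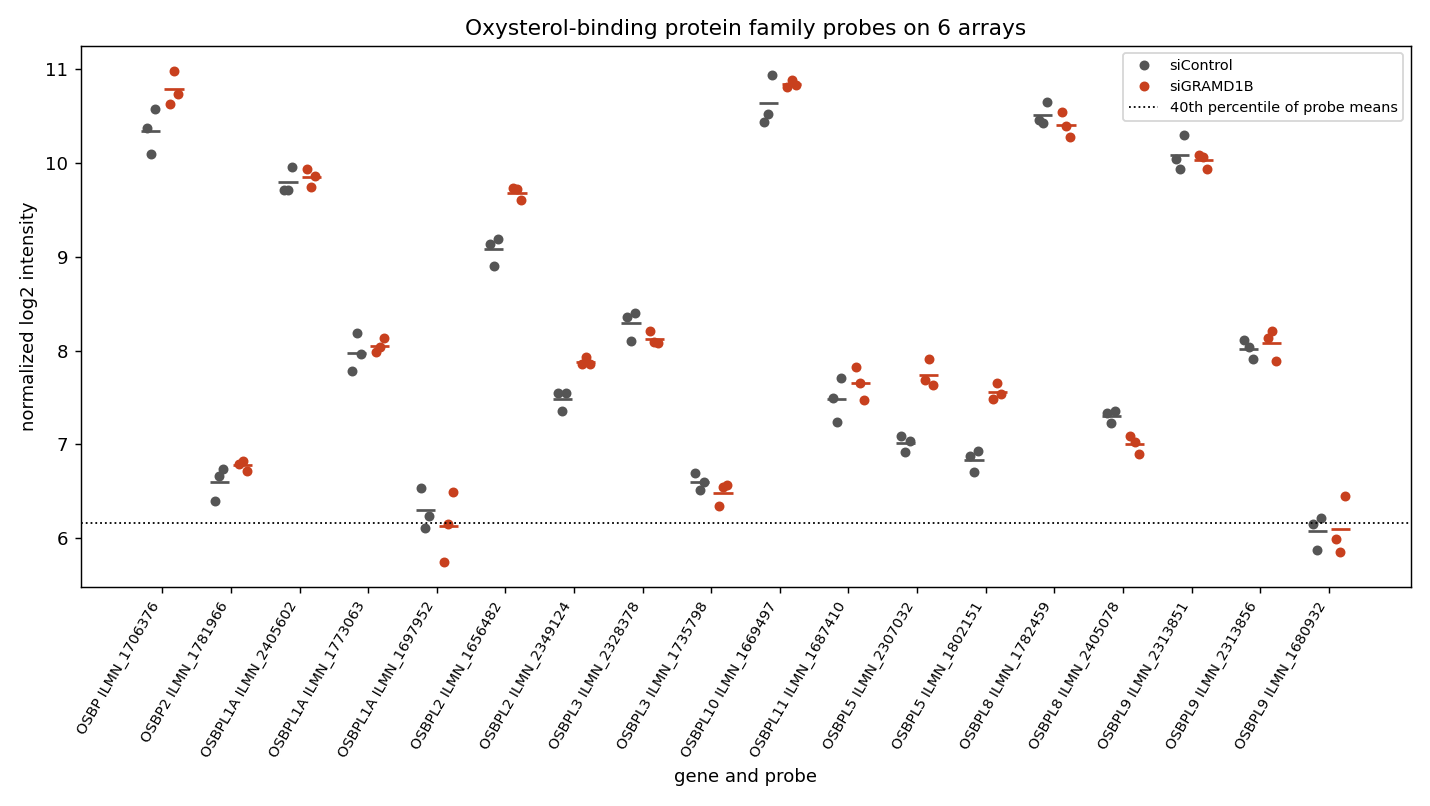
Normalized log2 intensity (vertical axis) of the 18 family probes (horizontal axis) on each of the 6 arrays, siControl in grey and siGRAMD1B in red, with a short line at each group mean and a dotted line at the 40th percentile of all probe means. The red points stand clear above the grey ones at both OSBPL5 and both OSBPL2 probes, narrowly above at OSBP, and below at the dimmer OSBPL8 probe.

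**Figure D2:**
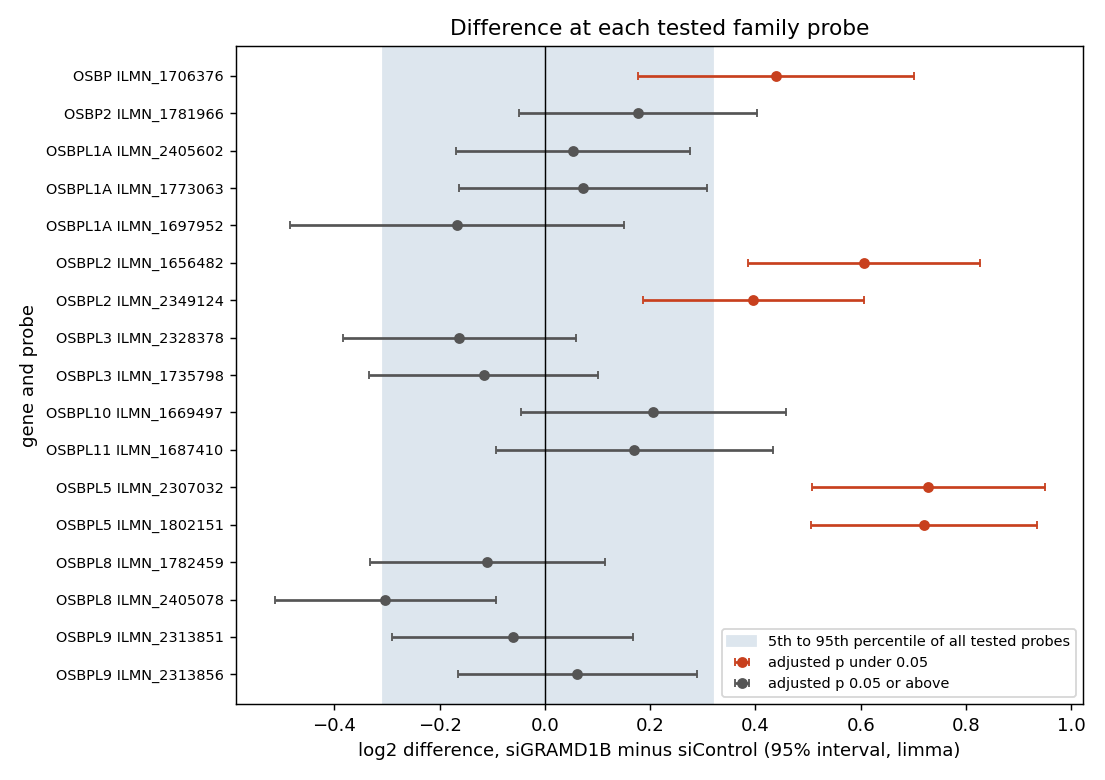
Log2 difference, siGRAMD1B minus siControl (horizontal axis), with its 95% interval from limma at each of the 17 tested family probes (vertical axis), over a band that spans the 5th to the 95th percentile of the differences of all tested probes (-0.31 to 0.32). The 5 called probes, in red, lie to the right of the band, and the other 12 estimates lie within it.

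The promoters of OSBP, OSBPL2 and OSBPL5 are shown because these were the family genes called higher. All 10 genes were found in the RefSeq promoter table of GRCh38.p14, with 16 start sites in all, and the 250 bases before each start were searched on both strands. Capitals mark the GC box GGGCGG and the CCAAT box CCAAT, in either orientation. The sequences run 5′ to 3′ on the strand of the gene, at chr11:59615775-59616024 (minus strand) for OSBP, chr20:62238271-62238520 (plus strand) for OSBPL2 and chr11:3165311-3165560 (minus strand) for OSBPL5, each directly upstream of the annotated start of the gene.
OSBP: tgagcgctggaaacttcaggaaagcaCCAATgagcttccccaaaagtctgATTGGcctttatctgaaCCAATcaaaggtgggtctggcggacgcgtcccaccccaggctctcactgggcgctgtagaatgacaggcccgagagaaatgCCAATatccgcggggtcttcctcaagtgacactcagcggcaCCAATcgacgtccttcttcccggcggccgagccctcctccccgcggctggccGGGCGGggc
OSBPL2: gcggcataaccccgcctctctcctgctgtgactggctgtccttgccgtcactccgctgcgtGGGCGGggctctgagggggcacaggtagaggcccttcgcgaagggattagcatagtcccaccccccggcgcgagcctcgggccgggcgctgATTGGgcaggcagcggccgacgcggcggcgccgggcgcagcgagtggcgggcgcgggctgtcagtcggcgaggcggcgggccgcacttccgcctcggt
OSBPL5: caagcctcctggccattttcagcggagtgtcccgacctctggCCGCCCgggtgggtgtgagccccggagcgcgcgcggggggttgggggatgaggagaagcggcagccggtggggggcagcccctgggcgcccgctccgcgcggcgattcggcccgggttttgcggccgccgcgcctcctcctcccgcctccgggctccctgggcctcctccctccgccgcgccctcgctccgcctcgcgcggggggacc
The OSBP promoter held 5 CCAAT boxes and 1 GC box, the OSBPL2 promoter 1 of each, and the OSBPL5 promoter 1 GC box and 0 CCAAT boxes. Their content of G and C was 61.2%, 74.4% and 78.4%, where the median of all promoters was 58.0%. Over the start sites of the other family genes it ran from 32.0% to 75.2%, and each of those genes had a start site at 68.8% or above. A GC box was present in 10 of the 16 family promoters and in 42.6% of all 35116 promoters, and a CCAAT box in 6 of the 16 and in 32.0% of all. The E-box CACGTG occurred in 2 family promoters, of OSBPL1A and OSBPL8, and in 6.34% of all, and TATAAA in 1 start site of OSBPL1A and in 10.7% of all. The sterol regulatory element of the LDL receptor promoter (0.0342% of all promoters) and an ideal direct repeat bound by LXR (0.0142%), each searched in 1 exact spelling, had 0 matches in the family, which says only that these letters are not in these windows.

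OSBPL5 encodes ORP5, which is anchored in the endoplasmic reticulum and delivers phosphatidylserine to the plasma membrane in exchange for PI4P. The gene lies on chromosome 11 (GRCh38.p14, 3087107 to 3165310). Before normalization, its probe ILMN_2307032 had intensities of 152, 164 and 180 under siControl, and of 256, 318 and 213 under siGRAMD1B. After normalization these were 7.09, 6.92 and 7.04 against 7.69, 7.91 and 7.63. The lowest siGRAMD1B array lay well above the highest siControl array, with group means of 7.01 ± 0.09 and 7.74 ± 0.15 (SD, n = 3 each). The difference was 0.73 ± 0.11 (SE, 95% interval 0.51 to 0.95, limma adjusted p = 0.00025), which ranked 149th among the rises of all 28338 tested probes. The second probe, ILMN_1802151, annotated to another transcript of the gene, gave 6.88, 6.70 and 6.93 in siControl and 7.49, 7.65 and 7.53 in siGRAMD1B, again without overlap. Its difference of 0.72 ± 0.10 (SE, limma adjusted p = 0.00021) was nearly that of the first, and it ranked 158th. Both probes were moderately dim in siControl, at the 71.7th and 69.6th percentile of probe means, where the background offset shrinks a fold change. With an offset of 16 in place of 50 the differences were 0.92 and 0.94, and in the authors' normalized values 0.56 and 0.53. Both probes were called under 15 of 16 alternative settings. The exception was the ordinary test per probe, which gave the same differences with adjusted p-values of 0.083 and 0.070.

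OSBPL2 encodes ORP2, a short member that lacks the pleckstrin homology domain of most relatives and brings cholesterol to the plasma membrane in exchange for phosphatidylinositol 4,5-bisphosphate. The gene lies on chromosome 20 (62238521 to 62296183). Its brighter probe, ILMN_1656482, had intensities of 522, 519 and 693 under siControl, and of 899, 992 and 708 under siGRAMD1B. Its normalized values were 9.14, 8.91 and 9.19 against 9.73, 9.72 and 9.60, so that the groups stood apart by more than the spread within either. The difference was 0.61 ± 0.10 (SE, 95% interval 0.39 to 0.83, limma adjusted p = 0.0013), with group means of 9.08 ± 0.15 and 9.68 ± 0.07 (SD, n = 3 each). It was called under 15 of 16 alternatives, the ordinary test per probe being the exception (adjusted p = 0.10). The dimmer probe, ILMN_2349124, is annotated to the same transcript and gave 7.55, 7.35 and 7.55 against 7.86, 7.93 and 7.86, also without overlap. Before normalization its groups overlapped narrowly, with an intensity of 243 in siControl replicate 4 and 242 in siGRAMD1B replicate 4. The probe rose by 0.40 ± 0.10 (SE, limma adjusted p = 0.021). That call was lost when siControl replicate 2 was left out (0.33, adjusted p = 0.083), and when any 1 siGRAMD1B array was left out, at adjusted p-values of 0.062, 0.091 and 0.060 for replicates 2, 3 and 4.

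OSBP, the founding member, carries cholesterol from the endoplasmic reticulum to the trans-Golgi in exchange for PI4P and is the protein that gave the family its name. The gene lies on chromosome 11 (59574398 to 59615774). Its only probe, ILMN_1706376, gave intensities of 1202, 1150 and 1733 under siControl, and of 1656, 2284 and 1514 under siGRAMD1B. Before normalization siControl replicate 4 therefore exceeded 2 of the siGRAMD1B arrays. After normalization the values were 10.37, 10.10 and 10.57 against 10.63, 10.99 and 10.74, so that the groups no longer overlapped, though siControl replicate 4 and siGRAMD1B replicate 2 lay close together. The difference was 0.44 ± 0.12 (SE, 95% interval 0.18 to 0.70, limma adjusted p = 0.039), with group means of 10.35 ± 0.24 and 10.79 ± 0.18 (SD, n = 3 each). The call was lost without siControl replicate 1 (difference 0.45, adjusted p = 0.092) or 2 (0.32, adjusted p = 0.16), and without siGRAMD1B replicate 3 (0.34, adjusted p = 0.20) or 4 (0.46, adjusted p = 0.091). It was also lost with median centring (adjusted p = 0.17) and with the offset of 16 (0.17). OSBP2 encodes ORP4, the closest relative of OSBP, known for a role in cell proliferation and survival. Its probe was dim, with values of 6.40, 6.67 and 6.73 in siControl, against 6.79, 6.83 and 6.71. Of the 6 arrays, siControl replicate 1 was the lowest, and the difference of 0.18 did not pass (95% interval -0.05 to 0.40, adjusted p = 0.40).

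OSBPL8 encodes ORP8, the nearest relative of ORP5, which shares its membrane anchor and its phosphatidylserine transfer to the plasma membrane. Its dimmer probe, ILMN_2405078, gave 7.33, 7.22 and 7.36 in siControl, against 7.09, 7.02 and 6.89. Before normalization the intensities overlapped, at 173, 192 and 218 in siControl against 185, 191 and 145. After normalization the groups did not overlap, with siGRAMD1B the lower. The difference was -0.30 ± 0.10 (SE, 95% interval -0.51 to -0.09), which did not pass (limma adjusted p = 0.079). With a stricter filter, which tested only probes with a mean above the 70th percentile, the same difference passed (adjusted p = 0.042). The brighter probe, ILMN_1782459, annotated to another transcript, gave 10.46, 10.43 and 10.65 against 10.54, 10.39 and 10.28, with overlapping groups and a difference of -0.11 (95% interval -0.33 to 0.11, adjusted p = 0.65). The estimates of OSBPL8 and OSBPL5 thus had opposite signs, but whether the genes of this pair differed was not tested.

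OSBPL10 and OSBPL11 encode ORP10 and ORP11, which form complexes with ORP9 and act at the Golgi and endosomes. OSBPL10 was read at 10.44, 10.52 and 10.94 in siControl and at 10.81, 10.88 and 10.83 in siGRAMD1B. The value of siControl replicate 4 lay above all other arrays, and the difference of 0.21 did not pass (95% interval -0.05 to 0.46, limma adjusted p = 0.38). Without siControl replicate 4 it was 0.36 and passed (adjusted p = 0.046), so that 6 family probes were then called higher. OSBPL11 gave 7.50, 7.23 and 7.71 against 7.83, 7.65 and 7.47, with overlapping groups and a difference of 0.17 (95% interval -0.09 to 0.43, adjusted p = 0.51).

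OSBPL9 encodes ORP9, which works between the endoplasmic reticulum and the trans-Golgi. Its brightest probe, ILMN_2313851, gave 10.04, 9.93 and 10.29 in siControl and 10.09, 10.06 and 9.94 in siGRAMD1B, so that the groups overlapped, with siControl replicate 4 above the other arrays. The differences were -0.06 at that probe and 0.06 at ILMN_2313856 (adjusted p = 0.83 at each), and the intervals of both lay between -0.29 and 0.29. The third OSBPL9 probe, ILMN_1680932, lay below the filter on dim probes, with values between 5.85 and 6.45, and was the only family probe not tested. OSBPL1A encodes ORP1, whose long form sits on late endosomes, senses their cholesterol and binds the GTPase RAB7A. Its brightest probe, ILMN_2405602, gave 9.71, 9.71 and 9.96 against 9.94, 9.74 and 9.86, with all siGRAMD1B arrays inside the range of siControl. The 3 OSBPL1A probes had differences of 0.05, 0.07 and -0.17, with adjusted p-values between 0.62 and 0.85. The probe at -0.17 is annotated to another transcript than the other pair and lay near the floor of the array, with a mean of 6.13 in siGRAMD1B. OSBPL3 encodes ORP3, which acts at contacts with the plasma membrane and binds the GTPase R-Ras. Its probes differed by -0.16 (8.36, 8.11 and 8.40 against 8.21, 8.09 and 8.08) and by -0.12, with adjusted p-values of 0.44 and 0.61. For OSBPL1A, OSBPL3 and OSBPL9 the 95% intervals of all 7 tested probes included 0 and kept any rise below 0.31 on the log2 scale.

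**Figure D3:**
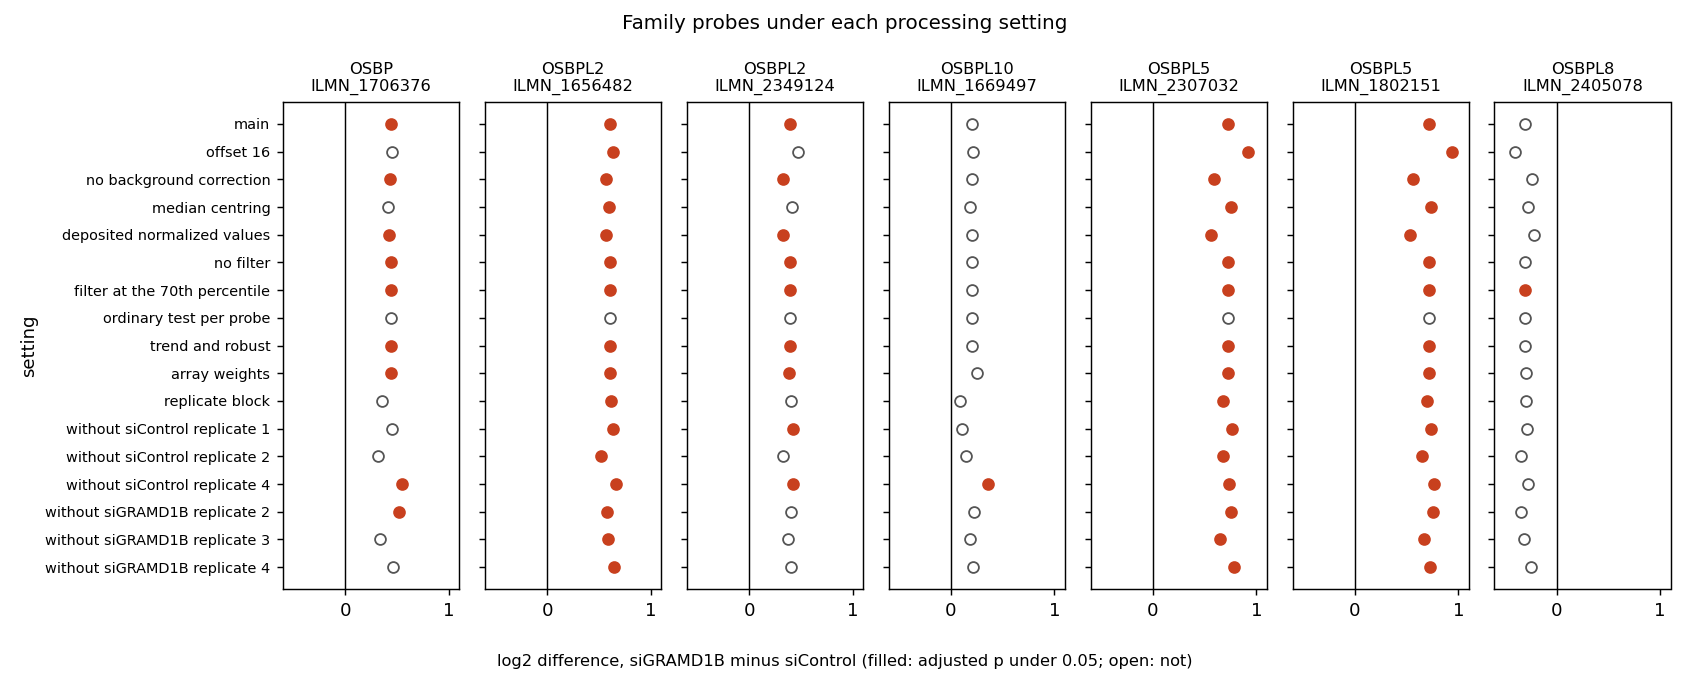
Log2 difference (horizontal axis) of the 5 called probes, of the OSBPL10 probe and of the dimmer OSBPL8 probe (panels) under the setting used here, named main, and each of 16 alternatives (vertical axis), filled where the adjusted p was under 0.05. Every point of OSBPL5, OSBPL2, OSBP and OSBPL10 lies to the right of 0 and every point of OSBPL8 to the left, while the points of OSBP and of the second OSBPL2 probe are filled under 8 of the 16 alternatives each.

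Genes of related lipid and contact site pathways were counted from 9 lists, by the probe with the highest mean for each gene. Of 109 genes listed, 105 were on the array and 93 were bright enough to be tested. Of these 7 were higher (7.53%) and 8 lower (8.60%), against 5.71% and 3.72% of all genes. Counts of single lists below are to be read beside these shares, and 1 call in a short list is not set apart from them. The remaining family genes, OSBPL6 and OSBPL7, did not pass, with differences of -0.14 (adjusted p = 0.51) and 0.09 (adjusted p = 0.72). Of 4 tested genes of GRAM domain proteins, the group that holds GRAMD1B, 0 were called higher. GRAMD2B fell by 0.38, from 9.02, 9.10 and 9.05 to 8.77, 8.70 and 8.58 (limma adjusted p = 0.025). Its call was lost without siControl replicate 1, siControl replicate 2, siGRAMD1B replicate 3 or siGRAMD1B replicate 4, at adjusted p-values up to 0.12.

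Among the VAP receptors and genes of PI4P turnover, 0 of 22 tested were higher and 3 were lower, with a median of -0.08. SACM1L encodes the phosphatase that breaks down PI4P in the endoplasmic reticulum. It fell by 0.39, from 10.34, 10.08 and 10.45 to 9.83, 9.97 and 9.89 (limma adjusted p = 0.037). ARF1, the GTPase that together with PI4P recruits OSBP to the Golgi, fell by 0.41 (adjusted p = 0.025), and a second ARF1 probe by 0.46 (adjusted p = 0.0096). INPP5E, an inositol polyphosphate 5-phosphatase gene, fell by 0.35 (adjusted p = 0.036). The brightest ARF1 probe, SACM1L and INPP5E were each called under 1 of the 6 settings that left out an array, the one without siControl replicate 2. Without siControl replicate 1 or 4, or siGRAMD1B replicate 2, 3 or 4, they were lost at adjusted p-values up to 0.13, 0.14 and 0.11. The receptor genes VAPA and VAPB did not pass, with differences of -0.07 (adjusted p = 0.81) and 0.0021 (adjusted p = 1.00), and the VAPB probe lay close to the filter, with a mean of 6.18 in each group. A second probe of OCRL, a phosphoinositide phosphatase gene, rose by 0.39 (adjusted p = 0.020) while its brightest probe did not pass (0.20, adjusted p = 0.31).

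In the list for phosphatidylinositol 4,5-bisphosphate, which ORP2 binds, 0 of 6 genes were called higher and 1 was called lower. PIP5K1C was 0.28 higher, with groups that did not overlap, but did not pass (limma adjusted p = 0.086). PIP4K2A, a phosphatidylinositol 5-phosphate 4-kinase gene, fell by 0.42 (adjusted p = 0.012) and by 0.52 at a second probe (adjusted p = 0.0039). Its brightest probe lost its call without siControl replicate 1 or siGRAMD1B replicate 4, at adjusted p-values up to 0.059. The remaining PIP4K2A probe, dim with a mean of 6.53, differed by -0.07 and did not pass (adjusted p = 0.77). Phosphatidylserine is the cargo of ORP5 and ORP8. Of 10 tested genes for its synthesis and decarboxylation and for lipid flipping in general, ATP9A was higher and 0 were lower, with a median of 0.02. ATP9A, a P4-type ATPase gene, rose by 0.64, from 10.45, 10.48 and 10.69 to 11.06, 11.29 and 11.19 (adjusted p = 0.00085), and kept its call without each array in turn. Another tested ATP9A probe, dim with a mean of 6.30, differed by 0.12 and did not pass (adjusted p = 0.61). The phosphatidylserine synthase genes PTDSS1 (-0.20, adjusted p = 0.27) and PTDSS2 (-0.0063, adjusted p = 0.99) did not pass.

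Of 21 tested genes for other lipid transfer proteins, 3 were higher and 0 lower, with a median of 0.06. C2CD2, a relative of the lipid transfer protein gene C2CD2L, rose by 0.99, from 9.78, 9.82 and 9.85 to 10.90, 10.85 and 10.66 (limma adjusted p = 5.67e-06), and by 0.50 at its second probe (adjusted p = 0.0042). TEX2, which encodes a lipid-binding protein of the endoplasmic reticulum, rose by 0.50 (adjusted p = 0.0051). GLTP, the glycolipid transfer protein gene, rose by 0.39 (adjusted p = 0.024). C2CD2 and TEX2 kept their calls without each array in turn, and GLTP lost its call without siControl replicate 2, siGRAMD1B replicate 2 or siGRAMD1B replicate 3, at adjusted p-values up to 0.099. Without siControl replicate 4, 5 of these 21 genes were called, where 1131 of all 28338 tested probes were called higher and 1007 lower. The probes of CERT1, the ceramide transfer protein gene, disagreed: its brighter probe differed by 0.02 (adjusted p = 0.96) and its dimmer probe by -0.51 (adjusted p = 0.0044).

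Of 10 tested genes of late endosomes and lysosomes, listed around ORP1, 2 were higher and 0 were lower, with a median of 0.07. These were VPS18 (0.47, limma adjusted p = 0.0087), a tethering complex gene, and PLEKHM2 (0.38, adjusted p = 0.036), which encodes an adaptor of lysosomes to kinesin. RAB7A itself did not pass (-0.21, adjusted p = 0.26). VPS18 lost its call without siControl replicate 1 or siGRAMD1B replicate 4, at adjusted p-values up to 0.057, and PLEKHM2 without siControl replicate 2 or any siGRAMD1B array, at adjusted p-values up to 0.15. Of 8 tested genes for oxysterol formation and LXR targets, RXRA, which encodes the partner receptor of the oxysterol receptors LXR, rose by 0.49 (adjusted p = 0.0039, also without each array in turn) and 0 were lower, with a median of 0.11. The LXR target genes ABCA1 (-0.17, adjusted p = 0.38), ABCG1 (0.13, adjusted p = 0.53) and MYLIP (0.10, adjusted p = 0.65) did not pass.

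In the list for sphingolipid synthesis, 0 of 10 genes were called higher and 3 lower, with a median of -0.17. The sphingomyelin synthase genes SGMS1 (-0.26, limma adjusted p = 0.15) and SGMS2 (-0.06, adjusted p = 0.82) were not among those called. DEGS1, the dihydroceramide desaturase gene, fell by 0.69, from 11.04, 11.06 and 11.04 to 10.44, 10.36 and 10.27 (limma adjusted p = 0.00020), and by 0.66 at its second probe (adjusted p = 0.00081). CERS6, a ceramide synthase gene, fell by 0.59 (adjusted p = 0.0019), and UGCG, the glucosylceramide synthase gene, by 0.46 (adjusted p = 0.017). DEGS1 and CERS6 kept their calls without each array in turn, and UGCG lost its call without siControl replicate 2, siGRAMD1B replicate 3 or siGRAMD1B replicate 4, at adjusted p-values up to 0.10. The lists were chosen with earlier results of these arrays known, and their counts were not tested as groups.

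**Figure D4:**
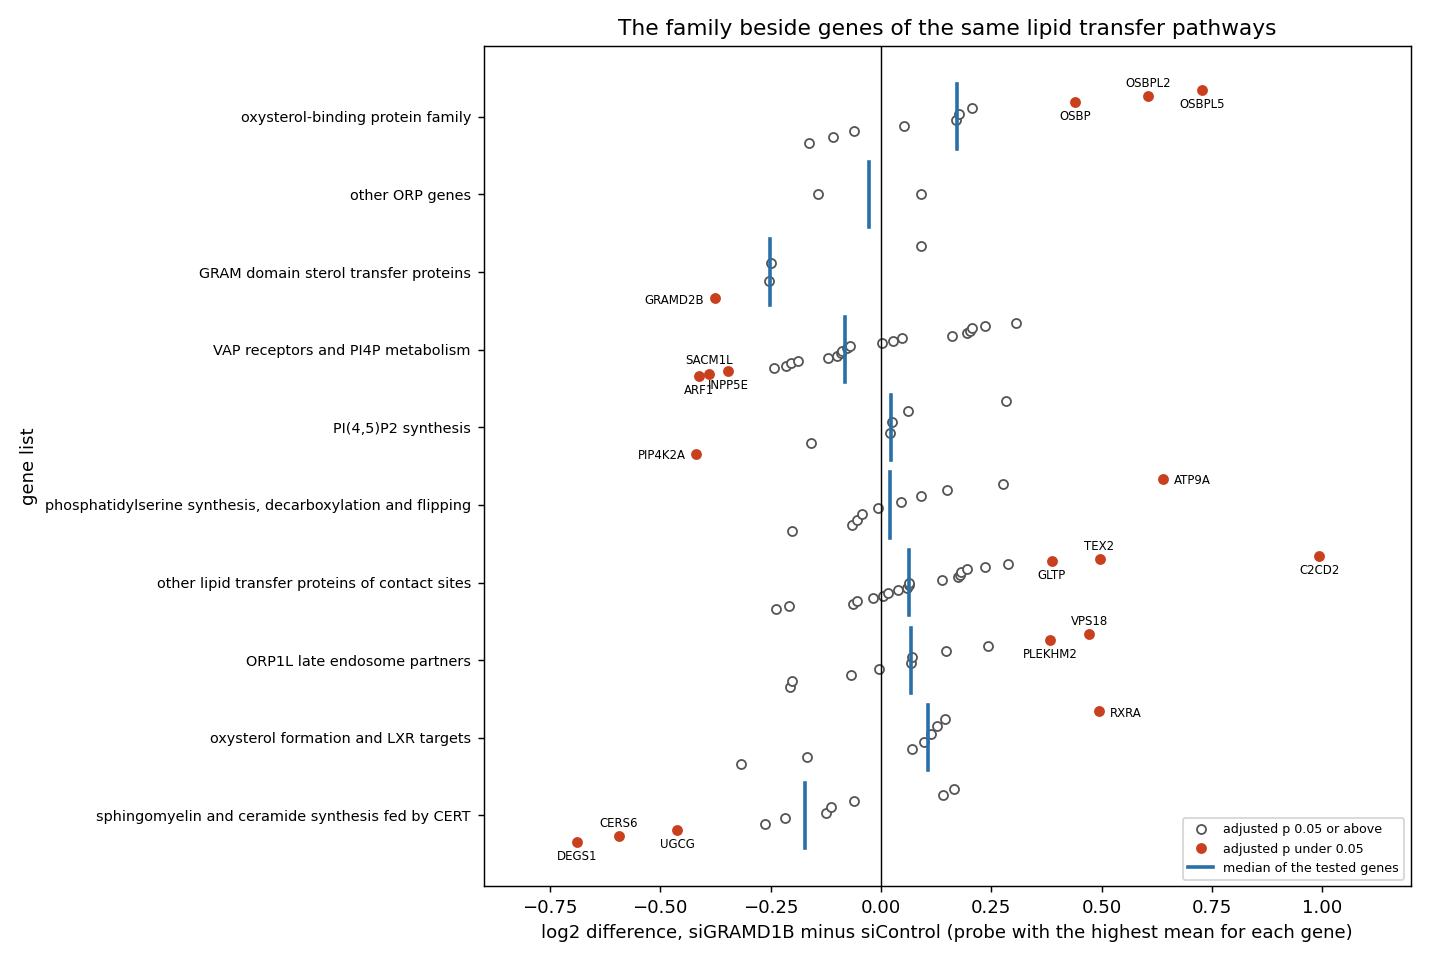
Log2 difference, siGRAMD1B minus siControl (horizontal axis), by the probe with the highest mean. Each tested gene of the family and of the 9 lists of genes from related pathways is shown (vertical axis). Called genes are filled and named, with a blue line at each median. The family's median of 0.17 is set by 10 genes of which 3 are called, the 3 called sphingolipid genes and the 3 called PI4P genes lie to the left, and C2CD2 lies farthest to the right.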

How the data were processed

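Biotin-labelled cRNA made from total RNA was read on Illumina bead arrays, per the labels' protocols. BeadStudio is the tool named in the submitters' processing notes, without a version. The deposited table of intensities is linear and not normalized, per the file headers and its values. Its header holds 1 name too many, so columns were assigned by moving the array names by 1 field, which was checked against the authors' deposited log2 values of the same arrays. How those log2 values, which share 1 distribution, were normalized is not stated.

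Here the intensities were corrected with normexp (offset 50), quantile-normalized and log2-transformed. Probes with a mean above the 40th percentile (6.16) were tested with lmFit and eBayes of limma 3.58.1 in R 4.3.3 (2-sided, 17.9 degrees of freedom), with Benjamini-Hochberg adjustment. Named genes are all family probes, GRAMD1B, the called genes of each list by their highest-mean probe and, for lists without a call, the 2 genes with the smallest p. Further probes of these genes, the receptor, synthase and LXR target genes, RAB7A, OCRL, PIP5K1C, CERT1 and SPTLC1 were named after their values were seen. Fold changes of dim probes are understated by the offset. The number of arrays limits the precision. The members and lists were chosen with earlier results of these data known. The procedure was tested on simulated data. No columns of other samples were present (0). The platform annotation gave 30113 probes 1 symbol.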

Additional observations from a re-analysis of the deposited data

How the results depend on the processing

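Over 16 alternatives, the differences of OSBPL5, OSBPL2 and OSBP kept their direction in all 16, and the count of family probes called higher, 5 in the setting used, was 5 without background correction, with the deposited normalized values, without a filter, with the filter at the 70th percentile, with array weights and with limma's trend and robust options. It was 3 with the offset of 16 and 3 with median centring, where OSBP and the dimmer OSBPL2 probe lost their calls, and 0 with the ordinary test per probe, by which 4 were higher at an unadjusted p under 0.05 (the cause was not tested). Leaving out each array in turn gave 3 to 6, with 3 without siControl replicate 2, siGRAMD1B replicate 3 or siGRAMD1B replicate 4 and 6 without siControl replicate 4. In the same order, 872, 673, 695 and 1131 of all tested probes were called higher in these settings. The count of family probes called lower was 0, and 1 (OSBPL8) with the filter at the 70th percentile, where fewer probes were tested. With that filter 14 family probes were tested, and 1163 of all 14169 tested probes were called lower, so this call is not set apart. Replicate numbers 2 and 4 occur in both groups, but the deviations of same-numbered arrays correlated at 0.02 and -0.15 across probes, so the numbers were not taken to pair the arrays. A fit with the replicate block, which rests on those 2 numbers, called 3 family probes higher and 0 lower. In that fit each family probe had the same SE of 0.15, so its calls followed the size of the difference and not the spread of each probe. Over all tested probes the counts were 1101 higher and 909 lower, 449 and 234 with the offset of 16, 603 and 419 with median centring, 578 and 409 with the replicate block and 164 and 92 with the ordinary test per probe. The lists of genes from related pathways held 0 or 1 call each with the offset of 16, except the sphingolipid list. With any probe of a gene counted, the PI4P, lipid transfer and sphingolipid lists held 4 called genes each in place of 3. The added genes were OCRL (0.39), CERT1 (-0.51) and SPTLC1 (-0.40), in mixed directions. The share of all genes called by any probe was not counted, so these counts have no share to be read beside. Signal near background limits what can be seen at several probes, among them those of GRAMD1B, VAPB and OSBP2, and the dimmest probes of OSBPL1A, OSBPL3 and OSBPL9.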
